A study of Homo sapiens with 12 samples.

Results

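The parental colorectal cancer lines HCT116 and Lovo (spelled as in the labels) were compared for their circular RNAs. The 6 libraries of the comparison were those labelled HCT116WT (n = 3) and those labelled as parental Lovo (n = 3), out of 12 in the series, and they were selected by these labels alone. The other 6 libraries came from a 5-fluorouracil (5-Fu) resistant derivative of each line, 3 libraries a line, selected with doses rising from 0.1 to 2 µg/ml. All 17938 circRNAs listed in the deposited table were considered. HCT116 is a line from a primary colon carcinoma, and LoVo is a line from a metastasis of a colorectal adenocarcinoma. The parental cells were not drug-selected. HCT116 was grown in DMEM and Lovo in F12, both with 10% serum, so the line and its medium cannot be told apart in any difference below. Whether the 3 libraries labelled as replicates stem from independent cultures is not stated, and p-values therefore reflect only their spread, part of which may be technical.

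A circRNA forms when the splicing machinery joins the end of an exon back to the start of the same or an earlier exon of its transcript, which leaves a covalently closed ring without a cap or a poly(A) tail. Such rings resist exonucleases and are long-lived, and the amount of a ring depends on the transcription of its host gene, on how often back-splicing takes place and on how fast cells divide. Which rings a cell holds therefore varies between cell types. Each circRNA is counted here by the reads that cross its back-splice junction, 1 junction per circRNA, so its level in CPM (junction reads scaled by library size and TMM factors) does not grow with the length of the ring. Linear transcripts were not part of the table, and in RNA from bulk cultures fewer expressing cells and less RNA per cell cannot be told apart.

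The parental HCT116 libraries held 6238, 8836 and 10535 junction reads and the parental Lovo libraries 6739, 5896 and 5654. At this depth most circRNAs had a few reads at most. After each library was thinned to 5654 reads, 2687 ± 296 circRNAs were detected in HCT116 and 2459 ± 142 in Lovo (SD, n = 3 each; two-sided exact permutation test p = 0.3, where 0.1 is the smallest p that 3 against 3 libraries allow). The sign of that difference turned when 2 reads were required, with 1396 ± 116 in HCT116 and 1427 ± 22.6 in Lovo. Exonic circRNAs took 86.8 ± 1.37% of the reads in HCT116 and 87.4 ± 0.870% in Lovo. Intronic ones took 3.01 ± 0.565% and 4.06 ± 0.555%, and junctions of the class sense overlapping took 10.0 ± 0.877% and 8.52 ± 0.473% (exact permutation test p = 0.1 for each, n = 3). Over the 300 circRNAs with enough reads to test, libraries of HCT116 correlated with each other at r of 0.618 to 0.674 and libraries of Lovo at 0.551 to 0.578, while pairs from different lines lay between 0.113 and 0.247. These correlations are across circRNAs, which are not independent replicates. The 300 passed a filter that enough reads in a single group could meet, and 15 of them had no reads in a parental line. That choice by itself can lower r between lines. None of the 11 fibroblast, 11 immune and 7 endothelial marker genes looked up hosted a listed circRNA, so these lists say little about other cells. Among 37 genes of intestinal epithelial identity, 11 had parental junction reads, 24 reads in HCT116 and 40 in Lovo.

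Across the whole table, 2560 circRNAs had reads in both parental lines, 4519 had reads in HCT116 and 0 in Lovo, and 2984 had reads in Lovo and 0 in HCT116. HCT116 was sequenced more deeply, with 25609 against 18289 reads in all. Only 35 of the HCT116 set and 14 of the Lovo set had at least 10 reads. Circles with reads in both lines held 54.1% of the HCT116 reads and 61.0% of the Lovo reads. Summed by host gene the lines shared more, since 2120 host genes had reads in both lines and these held 81.4% of the HCT116 reads and 86.3% of the Lovo reads. The FAT1, XPO1 and HIPK3 circRNAs were among the 5 highest in each line. The rest of the 5 in HCT116 came from ARHGAP12 and G073721, which, like FAT1, were called higher in HCT116 in the test below. Close below these 5 in HCT116 stood CYP24A1 (4677 CPM) and MAVS (4648 CPM), each with 0 reads in Lovo. The circRNA of HIPK3 (hsa_circ_0000284), from a kinase gene known for its abundant single-exon ring, stood at 4783 ± 1549 CPM in HCT116 and 6147 ± 1047 in Lovo (SD, n = 3; log2 fold change -0.34 ± 0.27 SE, adjusted p = 0.416, edgeR). That of the nuclear export receptor XPO1 (hsa_circ_0001017) stood at 5384 ± 1308 and 3802 ± 1608 CPM (adjusted p = 0.235, edgeR).

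Of the 300 circRNAs tested, 43 differed between the parental lines at an adjusted p under 0.05 (14.3%, edgeR's quasi-likelihood test with Benjamini-Hochberg adjustment over all 300), 26 higher in HCT116 (8.67%) and 17 higher in Lovo (5.67%). The 3 libraries of a line lay above all 3 of the other for 103 of the 300 circRNAs (34.3%), and for 25 of the 26 and 16 of the 17 calls. The exceptions were the DNA2 and NBPF1 circRNAs. By fitted fold change, 18 of the 26 and 14 of the 17 calls exceeded a 4-fold difference. Of the calls, 8 higher in HCT116 and 4 higher in Lovo had 0 reads in the other parental line. The split between directions depended on the scaling: 60.5% of calls were higher in HCT116 with TMM, 56.1% with relative log expression size factors and 42.2% with library totals, whose scaling lowers the log2 fold changes of circRNAs by 0.25. No call changed its sign under any of these scalings.

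**Figure D1:**
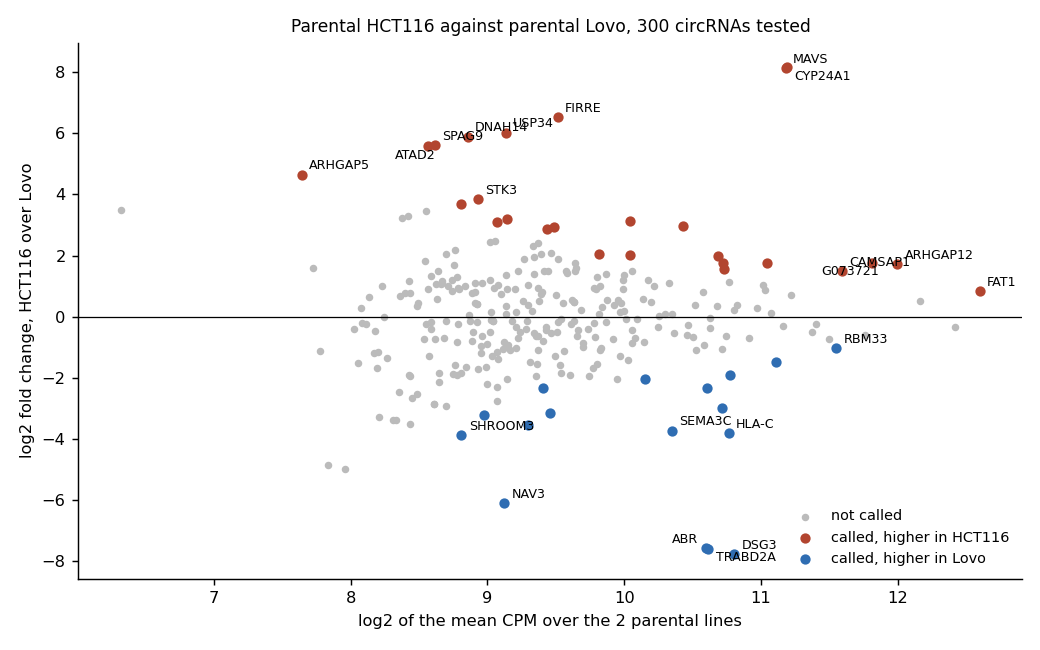
Log2 fold change of parental HCT116 over parental Lovo (y axis) against the log2 of the mean CPM over both lines (x axis) for the 300 circRNAs tested. Grey points did not pass the test, and the 26 red and 17 blue points did. The circRNAs of MAVS, CYP24A1, DSG3, ABR and TRABD2A lie farthest from the zero line, where fitted values rest on a line with 0 reads and are no bound.

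The circRNAs found in HCT116 with 0 reads in Lovo came from genes with unrelated roles. MAVS, the mitochondrial adaptor through which RIG-I and MDA5 signal the presence of foreign RNA, carried the strongest call. Its junction at chr20:3835205-3870375 (hg19, plus strand, sense overlapping, 35.2 kb, with no circBase record) had 37, 30 and 37 reads in the HCT116 libraries and 0 in each Lovo library. That is 4648 ± 1275 CPM (SD, n = 3) and at least 29.7-fold higher in HCT116, where 3 reads over the group stand for 0 and reads are scaled by TMM as in the CPM values (adjusted p = 1.69e-18, edgeR). All HCT116 libraries were high and all Lovo libraries at 0, and other MAVS junctions added 25 reads against 0. CYP24A1, the hydroxylase that inactivates vitamin D, followed with 23, 44 and 43 reads in HCT116 and 0 in Lovo (hsa_circ_0060927, chr20:52773708-52788209, exonic, predicted length 1106 bases). It was at least 31.4-fold higher in HCT116 (adjusted p = 1.82e-13, edgeR). In the resistant HCT116 derivative the same junction had 3, 2 and 3 reads, and in resistant Lovo 0.

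FIRRE, an X-linked long noncoding RNA that takes part in nuclear organization, gave 3, 17 and 16 reads in HCT116 and 0 in Lovo (hsa_circ_0001944, chrX:130883334-130928494, adjusted p = 1.81e-05, edgeR), at least 10.3-fold higher. HCT116 replicate 1 was the low library, yet above every Lovo library. A junction of USP34, a deubiquitinase that acts on axin in WNT signalling, had 14, 6 and 3 reads against 0 (chr2:61483519-61552592, no circBase record, at least 6.57-fold, adjusted p = 8.1e-05, edgeR). Other USP34 junctions had 31 reads in HCT116 and 14 in Lovo, a ratio of 1.9 with a 95% counting interval of 0.980 to 3.86, so the host gene as such was not at 0 in Lovo. SPAG9, a scaffold of JNK signalling, showed the same contrast between junctions. Its 81.3 kb junction (chr17:49197715-49279057, sense overlapping) had 6, 1 and 11 reads against 0 (adjusted p = 0.00492, edgeR), while its other junctions had 12 reads in HCT116 and 10 in Lovo.

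ATAD2, a bromodomain ATPase of chromatin, had 4, 4 and 10 reads in HCT116 and 0 in Lovo at hsa_circ_0085465 (chr8:124349865-124351686, at least 5.14-fold, adjusted p = 0.00749, edgeR). Its other junctions had 18 reads against 0, so no ATAD2 ring was seen in parental Lovo. ARHGAP5, a GTPase-activating protein, had 3, 3 and 3 reads against 0 at hsa_circ_0031584 (chr14:32559708-32586493, adjusted p = 0.0238, edgeR). The other ARHGAP5 junctions had 8 and 6 reads. This call of 9 reads was lost without HCT116 replicate 2 (adjusted p = 0.0565), without Lovo replicate 1 (0.0799), replicate 2 (0.0825) or replicate 3 (0.0954, all edgeR).

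DNAH14, a heavy chain of the axonemal dynein motor of cilia, stood out for the number of its rings. In the HCT116 libraries 13 different DNAH14 circRNAs were seen, with 15, 48 and 38 reads in sum, and in the Lovo libraries 2, with 2, 2 and 1 reads. The host gene sum was higher in HCT116 by 3.92 ± 0.56 on the log2 scale (SE, adjusted p = 2.87e-10, edgeR). At hsa_circ_0016601 (chr1:225140372-225195246) the reads were 11, 21 and 12 against 2, 1 and 1 (log2 fold change 3.14 ± 0.77, adjusted p = 0.000956, edgeR). A shorter ring from the same start, hsa_circ_0016600 (chr1:225140372-225161855), had 2, 8 and 13 reads against 0 (at least 6.57-fold, adjusted p = 0.00257, edgeR).

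**Figure D2:**
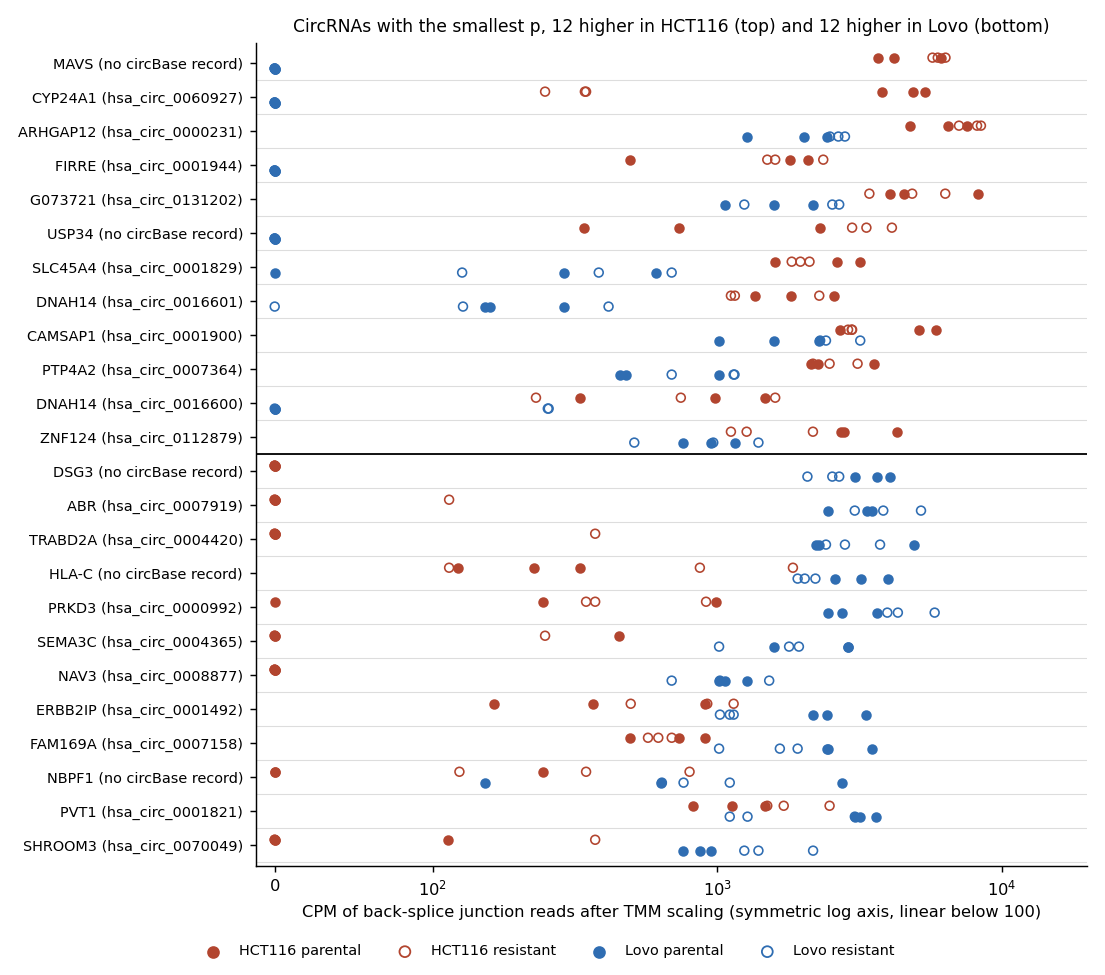
CPM of back-splice junction reads in each of the 12 libraries (x axis, symmetric log scale that is linear below 100) for the 12 circRNAs with the smallest p in each direction (y axis). Red marks are HCT116 and blue marks Lovo, filled for parental and open for resistant libraries. MAVS, FIRRE and USP34 marks of Lovo sit at 0 in all 6 Lovo libraries, while the open CYP24A1 marks of HCT116 lie far below the filled ones.

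The circRNAs found in Lovo with 0 reads in HCT116 were fewer, and their read counts divided the lines as sharply. DSG3, a desmosomal cadherin of stratified epithelia, had 28, 20 and 23 reads in the Lovo libraries and 0 in each HCT116 library. Its junction spanned 81.0 kb (chr18:28968330-29049312, plus strand, sense overlapping, no circBase record), and its level in Lovo was 3580 ± 505 CPM (SD, n = 3), at least 27.6-fold higher than in HCT116 (adjusted p = 1.97e-13, edgeR). ABR, which regulates small GTPases, had 17, 22 and 22 reads in Lovo and 0 in HCT116 (hsa_circ_0007919, chr17:953290-1003975, at least 23.7-fold, adjusted p = 2.79e-13, edgeR). Other ABR junctions had 21 reads in Lovo and 1 in HCT116, so the rings of this gene moved together. TRABD2A, a metalloprotease that cleaves and inactivates Wnt proteins, had 34, 15 and 14 reads against 0 (hsa_circ_0004420, chr2:85097349-85097909, a single stretch of 561 bases, at least 24.5-fold, adjusted p = 7.84e-13, edgeR). Lovo replicate 1 was the highest of the 3, and every Lovo library lay above every HCT116 library.

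NAV3, a protein that binds the growing ends of microtubules, was the counterpart of DNAH14 on the Lovo side. Its hsa_circ_0008877 (chr12:78360009-78415642) had 7, 7 and 8 reads in Lovo and 0 in HCT116 (at least 8.56-fold, adjusted p = 0.000653, edgeR). In Lovo 13 different NAV3 circRNAs were seen, with 27, 22 and 20 reads in sum, and in HCT116 2, with 2, 1 and 3 reads. The host sum was lower in HCT116, with a log2 fold change of -3.74 ± 0.61 (SE, adjusted p = 6.25e-08, edgeR).

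Because many rings of DNAH14 and of NAV3 moved together within each gene, the 250 bases before their transcription start are shown, from RefSeq on GRCh38.p14 and in the direction of the gene, with CG dinucleotides in capitals. The windows are chr1:224929404-224929653 (plus strand) for DNAH14 and chr12:77830644-77830893 (plus strand) for NAV3.
DNAH14: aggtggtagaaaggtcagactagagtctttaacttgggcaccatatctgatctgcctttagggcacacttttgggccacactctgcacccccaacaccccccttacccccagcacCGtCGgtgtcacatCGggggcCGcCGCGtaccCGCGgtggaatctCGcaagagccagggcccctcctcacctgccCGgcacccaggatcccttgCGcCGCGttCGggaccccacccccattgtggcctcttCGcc
NAV3: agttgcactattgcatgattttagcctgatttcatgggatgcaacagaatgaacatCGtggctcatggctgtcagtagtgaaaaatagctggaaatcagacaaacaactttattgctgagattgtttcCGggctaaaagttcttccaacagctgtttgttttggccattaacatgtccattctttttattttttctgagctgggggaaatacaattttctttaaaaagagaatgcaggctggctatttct
The motif searched was CG, which reads the same on both strands. DNAH14 held 15 and NAV3 held 2, where the median of 35116 promoter windows of this length was 11 (quartiles 3 and 23), and 93.9% of the windows held at least 1. A window with as few CG dinucleotides as that of NAV3, or fewer, was found for 22.9% of promoters, and for DNAH14 the corresponding share was 59.0%. DNA methylation was not measured here.

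Other circRNAs had reads in both lines and were called higher in HCT116. ARHGAP12, another GTPase-activating protein, had 29, 53 and 67 reads in the HCT116 libraries, against 14, 16 and 8 in those of Lovo at hsa_circ_0000231 (chr10:32197100-32199491). This was 6277 ± 1411 against 1909 ± 590 CPM (SD, n = 3; log2 fold change 1.72 ± 0.32 SE, adjusted p = 3.91e-06, edgeR), with no overlap between the lines. CAMSAP1, which binds the minus ends of microtubules, had 31, 22 and 52 reads in the HCT116 libraries, against 7, 15 and 10 in those of Lovo (hsa_circ_0001900, log2 fold change 1.48 ± 0.37, adjusted p = 0.00141, edgeR), and its other junctions had 36 reads against 3. FAT1, an atypical cadherin, was the most abundant circRNA of HCT116, with 48, 75 and 60 reads at hsa_circ_0001461 (chr4:187627717-187630999) against 29, 29 and 30 in Lovo. Its log2 fold change of 0.83 ± 0.27 was the smallest among the calls in HCT116 (adjusted p = 0.0163, edgeR). The FAT1 call was lost with library totals (adjusted p = 0.0985), without HCT116 replicate 2 (0.146) and without Lovo replicate 2 (0.0665) or 3 (0.0685, all edgeR). Its other junctions went the other way, with 25 reads in HCT116 and 42 in Lovo, a ratio of 0.510 (95% counting interval 0.298 to 0.857).

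MATR3, a nuclear matrix protein that binds RNA, had 20, 19 and 20 reads in the HCT116 libraries, against 9, 2 and 4 in those of Lovo (hsa_circ_0008922, log2 fold change 1.76 ± 0.51, adjusted p = 0.00651, edgeR). Its call was lost without Lovo replicate 2 (adjusted p = 0.0989) or 3 (0.0628). PTP4A2, a phosphatase of the PRL family, had 13, 29 and 20 reads against 7, 3 and 3 (hsa_circ_0007364, log2 fold change 2.00 ± 0.51, adjusted p = 0.0017, edgeR), a call lost without HCT116 replicate 2 (0.0565). SLC45A4, a member of a solute carrier family, had 16, 13 and 28 reads against 2, 4 and 0 (hsa_circ_0001829, log2 fold change 2.96 ± 0.64, adjusted p = 9.53e-05, edgeR). In each of these 3 genes the lines did not overlap.

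ZNF124, a KRAB zinc finger gene, gave 2 calls that share an end. Its hsa_circ_0112879 had 17, 35 and 24 reads against 8, 5 and 6 (log2 fold change 1.76 ± 0.48, adjusted p = 0.00362, edgeR), and hsa_circ_0002922 had 4, 6 and 10 against 0, 0 and 1 (log2 fold change 3.69 ± 1.17, adjusted p = 0.0162, edgeR). The first was lost without HCT116 replicate 2 (adjusted p = 0.0959), the second without HCT116 replicate 3 (0.0637), Lovo replicate 1 (0.0813) or Lovo replicate 2 (0.0828). WHSC1, a histone H3 lysine methyltransferase, had 5, 3 and 17 reads against 2, 0 and 0 at hsa_circ_0008460 (adjusted p = 0.0425, edgeR), with most of the reads in HCT116 replicate 3. Without that library its adjusted p was 0.358, and it was also lost without HCT116 replicate 1 (0.0537), Lovo replicate 2 (0.133) or Lovo replicate 3 (0.146). CREBBP, a histone acetyltransferase, had 11, 14 and 14 reads against 1, 6 and 1 at hsa_circ_0007637. Its adjusted p of 0.0499 was the highest among the calls, it was lost without any single one of the parental libraries other than Lovo replicate 2 (0.0791 to 0.207), and DESeq2 gave 0.066.

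The uncharacterized noncoding transcript G073721 also belonged to the most abundant circRNAs of HCT116, with 50, 33 and 40 reads at hsa_circ_0131202 (chr6:158733083-158735300) and 15, 7 and 10 in Lovo (log2 fold change 1.76 ± 0.35, adjusted p = 1.92e-05, edgeR). Its other junction had 27 reads in HCT116 and 34 in Lovo. A ring annotated to TULP4 (chr6:158688266-158735300, hsa_circ_0131194), which ends at the same base, had 0 reads in HCT116 and 10 in Lovo, so junctions of these overlapping loci are given under the names the table uses.

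On the Lovo side, PRKD3, a kinase of the protein kinase D family, had 6, 2 and 0 reads in the HCT116 libraries, against 17, 18 and 23 in those of Lovo (hsa_circ_0000992, chr2:37543380-37544322, log2 fold change -2.99 ± 0.53, adjusted p = 1.07e-06, edgeR). SEMA3C, a secreted semaphorin, had 0, 0 and 4 against 20, 19 and 10 (hsa_circ_0004365, chr7:80418622-80440017, log2 fold change -3.73 ± 0.74, adjusted p = 1.42e-05, edgeR). ERBB2IP, a scaffold that binds the receptor ERBB2 at basolateral membranes, had 1, 3 and 8 against 15, 16 and 21 (hsa_circ_0001492, log2 fold change -2.34 ± 0.58, adjusted p = 0.00101, edgeR). For all 3 genes every Lovo library lay above every HCT116 library. The other ERBB2IP junctions did not follow, with 26 reads in HCT116 and 17 in Lovo.

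PVT1, the long noncoding gene next to MYC, was higher in Lovo at its common ring hsa_circ_0001821 (chr8:128902835-128903244), with 5, 12 and 10 HCT116 reads against 25, 20 and 20 Lovo reads (log2 fold change -1.49 ± 0.44, adjusted p = 0.00799, edgeR). That call was lost without HCT116 replicate 1 (adjusted p = 0.0643) or 3 (0.0637) and without Lovo replicate 1 (0.0729). SHROOM3, an actin regulator of apical constriction, had 0, 0 and 1 reads against 6, 5 and 6 (hsa_circ_0070049, adjusted p = 0.00816, edgeR), a call lost without HCT116 replicate 2 (0.0643). FAM169A had 3, 6 and 8 against 17, 16 and 22 (hsa_circ_0007158, log2 fold change -1.91 ± 0.53, adjusted p = 0.00403, edgeR), a call lost without Lovo replicate 3 (0.0563). RBM33, an RNA-binding protein, had 9, 21 and 16 against 41, 17 and 23 (hsa_circ_0001772, log2 fold change -1.04 ± 0.37, adjusted p = 0.0357, edgeR). After scaling, its highest HCT116 library (2570 CPM) and its lowest Lovo library (2586 CPM) nearly met. Without Lovo replicate 1 the log2 fold change was -0.56 (adjusted p = 0.492), and the call was also lost without HCT116 replicate 1 (0.169), HCT116 replicate 3 (0.175) or Lovo replicate 3 (0.0689).

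A pair of the Lovo calls lie in gene families with near-identical copies and are uncertain. The junction named for HLA-C, a classical MHC class I gene, had 2, 1 and 2 reads in the HCT116 libraries, against 18, 21 and 25 in those of Lovo (log2 fold change -3.80 ± 0.61, adjusted p = 2.61e-08, edgeR), but it spans 85.1 kb (chr6:31238163-31323269) in a region with several class I genes. Other junctions named for HLA-C had 16 reads in HCT116 and 14 in Lovo. NBPF1 belongs to a family with many copies on chromosome 1, and its 19, 1 and 4 Lovo reads against 0, 2 and 0 in HCT116 overlapped between the lines (adjusted p = 0.00621, edgeR). Without Lovo replicate 1 its adjusted p was 0.471, and without HCT116 replicate 3 it was 0.0711. The HLA-C junction is also of the class sense overlapping and has no circBase record. The same holds for those of MAVS (35.2 kb), DSG3 (81.0 kb) and SPAG9 (81.3 kb). None of these long junctions was checked against the genome, so they are uncertain as rings of the gene named.

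Of the remaining 10 called circRNAs, those of KLHL8, STK3, SETD3, KANSL1, LAPTM4B and DNA2 were higher in HCT116, with log2 fold changes from 1.54 for SETD3 to 3.84 for STK3 (adjusted p from 0.0082 to 0.0417, edgeR). Those of ABHD2, LHFPL2, ESYT2 and HIBADH were higher in Lovo, with log2 fold changes from -2.03 for LHFPL2 to -3.20 for HIBADH (adjusted p from 0.00998 to 0.0357, edgeR). Each of these 10 calls was lost without at least 1 of the 6 parental libraries. Those of ESYT2 and HIBADH were lost without any single one of the 6 other than Lovo replicate 2.

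Reads from the other junctions of the same host gene were a readout that these calls did not use, except in DNAH14 and ZNF124. In these genes each called circRNA counts among the other reads of the other called one, and all are within the 23 and the 14 below. Of the 43 called circRNAs, 28 had at least 10 such reads in the parental libraries. In 23 of these 28 the other junctions leaned the same way as the call, and in 14 the 95% counting interval of their ratio excluded 1, for example in MAVS, ABR, NAV3, STK3 and WHSC1. In the other 5, from G073721, ERBB2IP, FAT1, KANSL1 and RBM33, they leaned the other way, and the interval excluded 1 for FAT1 alone. Some of these junctions belong to the same gene and share its transcription, so they are not independent of each other. A test of whether the rings of a host gene differed by unequal amounts called 0 of 84 circRNAs and 0 of 38 host genes (edgeR's diffSpliceDGE, 0% for each), with 8 circRNAs (9.52%) and 6 host genes (15.8%) at an unadjusted p under 0.05. The 6 host genes were G073721, FAT1, HLA-C, KANSL1, ARHGAP5 and NAB1. In simulated data that test recovered 22.2% of 8-fold shifts between the rings of a gene, so it had little power.

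Summing all junctions of a host gene brought in further genes, whose single rings were too rare to test or were not called. Of 580 host genes tested, 58 differed between the parental lines (10%), 30 higher in HCT116 (5.17%) and 28 higher in Lovo (4.83%), and 133 had an unadjusted p under 0.05 (22.9%). The 3 libraries of a line lay above all 3 of the other for 164 of the 580 (28.3%), and for 29 of the 30 and 27 of the 28 calls. With relative log expression size factors 41.7% of the host calls were higher in HCT116 and with library totals 37.1%, against 51.7% with TMM. The sums include the junctions described above, and 33 of the 58 genes were those of called circRNAs.

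**Figure D3:**
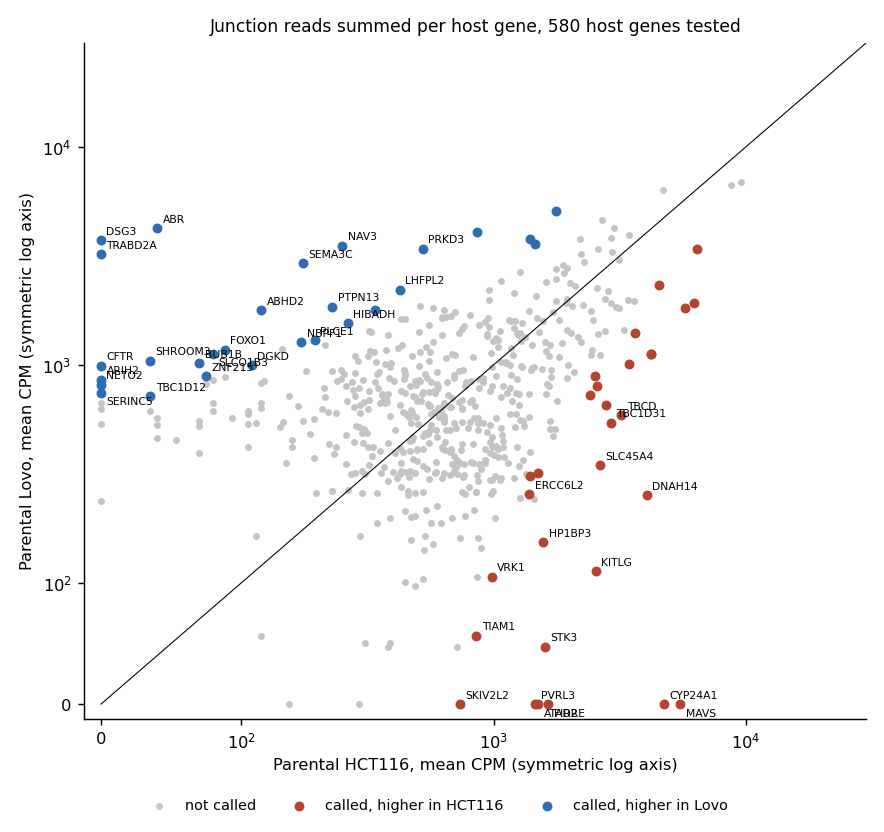
Mean CPM of junction reads summed per host gene in parental HCT116 (x axis) and parental Lovo (y axis), both on symmetric log axes, for the 580 host genes tested (n = 3 libraries per line). The line marks equal levels. Red points (30) and blue points (28) passed the test, and points on an axis have 0 reads in the other line.

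On the HCT116 side these were, among others, KITLG, PTK2, PVRL3 and TBC1D31. KITLG, the ligand of the receptor kinase KIT, had 8, 30 and 26 reads over 7 rings in HCT116 and 0, 0 and 2 in Lovo (log2 fold change 4.44 ± 0.84, adjusted p = 5.98e-06, edgeR). PTK2, the focal adhesion kinase, had 22, 35 and 46 reads over 21 rings against 9, 7 and 6 over 9 rings (log2 fold change 1.89 ± 0.40, adjusted p = 6.41e-05, edgeR). PVRL3, the adhesion molecule nectin-3, had 9, 15 and 11 reads against 0 (at least 9.47-fold, adjusted p = 0.00178, edgeR). All 3 kept the lines apart. STK3, the MST2 kinase of the Hippo pathway and also called at a single ring, had 8, 16 and 15 reads against 1, 0 and 0 in sum (log2 fold change 4.59 ± 1.01, adjusted p = 0.000143, edgeR), and TBC1D31 had 9, 32 and 33 against 4, 7 and 0 (log2 fold change 2.38 ± 0.51, adjusted p = 9.18e-05, edgeR).

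TBCD, a cofactor of tubulin folding, had 8, 53 and 19 reads against 1, 4 and 6, and its call rested on HCT116 replicate 2 (log2 fold change 2.49 ± 0.53, adjusted p = 8.81e-05, against 1.50 and 0.185 without that library, edgeR). HP1BP3, a chromatin protein related to linker histones, had 15, 8 and 13 against 1, 1 and 1 (adjusted p = 0.0045), a call lost without HCT116 replicate 1 (0.0816, edgeR). GDI2, which recycles Rab GTPases, had 27, 34 and 24 against 11, 14 and 3 (adjusted p = 0.0123, edgeR) and SKIV2L2, a helicase of the nuclear exosome, 9, 2 and 5 against 0 (adjusted p = 0.0153, edgeR). The GDI2 call was lost without HCT116 replicate 1 (0.113) or 2 (0.0907) or Lovo replicate 3 (0.222), and that of SKIV2L2 without HCT116 replicate 1 (0.161) or any single Lovo library (0.0616 to 0.0719). KLHL8, an adaptor of a cullin ubiquitin ligase with a called ring, had 13, 7 and 15 against 1, 2 and 3 (adjusted p = 0.0226, edgeR), lost without HCT116 replicate 1 (0.162) or 3 (0.099) and Lovo replicate 1 (0.161) or 2 (0.0687). TIAM1, an exchange factor for Rac, had 4, 9 and 8 against 0, 0 and 1 (adjusted p = 0.0373, edgeR), and CEP192, a centrosome scaffold, had 19, 51 and 42 against 21, 15 and 10 (adjusted p = 0.048, edgeR). TIAM1 kept its call only without Lovo replicate 3 among the 6 omissions (0.0678 to 0.169 in the others), and CEP192 only without HCT116 replicate 1 (0.063 to 0.352 in the others).

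On the Lovo side the sums brought in CFTR, SLCO1B3, PTPN13 and FOXO1, among others. CFTR, the chloride channel of intestinal and airway epithelium, had 10, 8 and 2 reads over 6 rings in Lovo and 0 in HCT116 (at least 8.21-fold, adjusted p = 0.00208, edgeR). No CFTR ring had more than 5 reads, so none could be tested alone. SLCO1B3, an uptake transporter for organic anions, had 4, 13 and 5 reads in Lovo and 0, 2 and 0 in HCT116 (log2 fold change -3.53 ± 1.06, adjusted p = 0.0128, edgeR), a call lost without HCT116 replicate 1 (0.069) or 3 (0.108) or Lovo replicate 2 (0.165). ABHD2, a serine hydrolase whose single ring was called too, had 11, 6 and 17 against 0, 3 and 0 (log2 fold change -3.66 ± 0.85, adjusted p = 0.000481, edgeR). PTPN13, a tyrosine phosphatase, had 18, 13 and 6 against 0, 4 and 2 (adjusted p = 0.0045), lost without Lovo replicate 1 (0.0605, edgeR). FOXO1, a forkhead transcription factor held in check by AKT, had 8, 9 and 6 against 1, 0 and 1 (adjusted p = 0.00541), lost without HCT116 replicate 2 (0.0652, edgeR). In these 5 genes the lines did not overlap.

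ESYT2 and LHFPL2 were called both at a single ring and in sum. ESYT2, a tether between the endoplasmic reticulum and the plasma membrane, had 15, 8 and 12 reads in Lovo and 1, 1 and 7 in HCT116 (adjusted p = 0.00439), lost without HCT116 replicate 2 (0.0672, edgeR). LHFPL2 had 9, 13 and 20 against 3, 4 and 3 (adjusted p = 0.00475), lost without Lovo replicate 3 (0.129, edgeR). NETO2, an auxiliary subunit of kainate receptors, had 4, 9 and 3 against 0 (adjusted p = 0.0086), lost without Lovo replicate 2 (0.0819, edgeR). SERINC5, a membrane protein that restricts retroviruses, had 7, 6 and 2 against 0 (adjusted p = 0.0209, edgeR), and PLCE1, a phospholipase C regulated by Ras, 13, 8 and 5 against 3, 0 and 1 (adjusted p = 0.0274, edgeR). Both were lost without either of HCT116 replicates 2 and 3 and without either of Lovo replicates 1 and 2 (0.0622 to 0.0719 for SERINC5 and 0.07 to 0.158 for PLCE1). BUB1B, a kinase-like protein of the spindle checkpoint, had 8, 6 and 6 against 0, 0 and 2 (adjusted p = 0.0445) and ZNF215 6, 3 and 8 against 0, 1 and 1 (adjusted p = 0.0446, edgeR). BUB1B kept its call only without HCT116 replicate 3 among the 6 omissions (0.0806 to 0.141 in the others), and ZNF215 in none. Of the other host genes added, ERCC6L2, LRPPRC and VRK1 were higher in HCT116 and TBC1D12, ARIH2 and DGKD higher in Lovo. Their adjusted p ran from 0.0334 to 0.0489 (edgeR). The calls of ERCC6L2, VRK1, ARIH2 and DGKD were lost without any single one of the 6 parental libraries. VRK1 kept its call in 0 of 13 alternative runs. LRPPRC lost its call without HCT116 replicate 1 or 2 or any single Lovo library, and TBC1D12 without HCT116 replicate 1 or 2 or Lovo replicate 2 or 3.

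The called host genes were looked up in 19 lists, assembled by function, by gene name (zinc finger genes and solute carriers) or as cell type markers. Most called host genes were in none of these lists, and several lists held no called gene. Each list's count is read against the 10% of all 580 host genes that were called. The median log2 fold change over the 580 was 0.04 with TMM and -0.13 with library totals, a shift of -0.17. Library totals turned the sign of the medians of the chromatin list, the receptor list and the intestinal identity list, and relative log expression size factors those of the first 2. Cytoskeleton and small GTPase regulators had 70 of 79 genes in the table and 14 tested, of which ARHGAP12 and TIAM1 were higher in HCT116 and 0 higher in Lovo (median 0.75). Their reads summed to 26010 to 36510 CPM in the HCT116 libraries and 18260 to 21910 in those of Lovo. Chromatin modifiers had 24 tested and 2 called, ATAD2 and WHSC1, both higher in HCT116 (median 0.06). Adhesion and matrix genes had 7 tested with PTK2 higher in HCT116 and DSG3 higher in Lovo (median 0.38). WNT signalling had 7 tested and USP34 called (median 0.21), ubiquitin ligases and deubiquitinases 24 tested and the same USP34 called (median -0.13), and the metabolic list of vitamin D, retinoid, lipid and nucleotide genes 9 tested and CYP24A1 called (median -0.11). Receptor, RAS-MAPK and PI3K-mTOR genes had 11 tested and ERBB2IP called, higher in Lovo (median 0.03). Splicing and circRNA biogenesis factors had 10 tested and MATR3 called (median -0.10), cell cycle genes 11 tested with CEP192 higher in HCT116 and BUB1B higher in Lovo (median 0.17), solute carriers 7 tested with SLC45A4 and SLCO1B3 called in opposite directions (median -0.47), and zinc finger genes 12 tested with ZNF124 and ZNF215 called in opposite directions (median 0.49). Some of these sums were less stable than their rings. The USP34 sum lost its call without HCT116 replicate 1 (adjusted p = 0.232), Lovo replicate 1 (0.208) or Lovo replicate 3 (0.0650, edgeR) and with limma-voom (0.0558). The MATR3 sum lost it without HCT116 replicate 1 (0.126), Lovo replicate 2 (0.0968) or Lovo replicate 3 (0.108, edgeR) and with limma-voom (0.0536). The ERBB2IP sum lost it without HCT116 replicate 1 (0.209) or 2 (0.0747) or Lovo replicate 2 (0.0859) or 3 (0.206), and the WHSC1 sum without Lovo replicate 2 (0.0956) or 3 (0.109, all edgeR).

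Among vesicle trafficking and nuclear transport genes, 0 of 33 host genes tested were called (median 0.39), beside 10% of all host genes, although their 124 genes in the table held 1325 reads in HCT116 and 883 in Lovo. DNA repair had 0 of 11 called (median 0.57), p53 and apoptosis 0 of 6 (median -0.47), TGF-beta and BMP signalling 0 of 1 and intestinal epithelial identity 0 of 1. In lists with 6 genes or fewer, a count of 0 is close to that share. On simulated data the test of host sums recovered 30.8% of 4-fold changes, so a count of 0 does not show that a list was unchanged. These counts hold for the lists as assembled, which are not complete. The called host gene GDI2 was not in the trafficking list, and the called host genes DNA2 and ERCC6L2 were not in the repair list. The nearest to a call in these groups were MDM2, the ubiquitin ligase of p53, with 0 reads in HCT116 and 13 in Lovo (adjusted p = 0.0508, edgeR), and PMS1 and FANCL with 74 against 28 and 42 against 10 (0.0595 and 0.0667). CDH17, the liver-intestine cadherin, had 0 reads in HCT116 and 11 in Lovo over 3 rings, and EPCAM 6 and 4.

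The whole table held further rings of this kind that were too rare in the 4 groups to test. The untested circRNAs with most reads in HCT116 and 0 in Lovo came from PVRL3 (hsa_circ_0066776, 6, 9 and 7 reads), KITLG (hsa_circ_0099427, 3, 2 and 11) and TEX2 (hsa_circ_0006479, 3, 9 and 4). Those with most reads in Lovo and 0 in HCT116 came from SLCO1B3 (2, 8 and 2), PLCE1 (hsa_circ_0019223, 4, 3 and 4) and the intronic ZFC3H1 circRNA hsa_circ_0006910 (9, 0 and 2, with most reads in Lovo replicate 1). The ANKHD1 circRNA hsa_circ_0001540 tied with those of PLCE1 and ZFC3H1, at 11 Lovo reads in all. Each of these circRNAs had 0 reads in the 3 libraries of the other parental line.

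Junction reads were also unevenly spread over the chromosomes. Summed per chromosome and scaled by library totals, 11 of 23 chromosomes differed between the parental lines (47.8%), 7 higher in HCT116 (30.4%) and 4 higher in Lovo (17.4%, edgeR). Chromosome 8 held 5.32, 5.00 and 4.77% of the HCT116 reads and 3.31, 3.12 and 2.83% of the Lovo reads, a log2 fold change of 0.69 ± 0.09 (SE, adjusted p = 3.39e-11). Chromosome 15 held 3.78, 4.01 and 3.27% and 5.56, 5.77 and 6.12%, a log2 fold change of -0.66 ± 0.08 (adjusted p = 1.24e-11), and chromosome 7 held 4.97, 5.52 and 5.17% and 7.85, 7.65 and 7.80% (-0.57 ± 0.07, adjusted p = 9.55e-12). The lines did not overlap on any of these 3, nor on 12 of the 23 chromosomes in all (52.2%). Chromosomes 5 (-0.48 ± 0.07) and 12 (-0.52 ± 0.08) were also higher in Lovo, and chromosomes 10 (0.54 ± 0.08), 20 (0.62 ± 0.13), 17 (0.36 ± 0.08), 16 (0.34 ± 0.10), 1 (0.29 ± 0.06) and 2 (0.21 ± 0.06) in HCT116. DNA copy number was not measured, and its part in these sums was not tested.

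Without the 43 called circRNAs, 10 of the 11 chromosomes passed the test, while chromosome 20, home of MAVS and CYP24A1, fell to 0.13 ± 0.14 (adjusted p = 0.607, edgeR). Single host genes leaned with their chromosome: on the 7 chromosomes higher in HCT116 the median log2 fold change was 0.52, and 135 of 200 host genes (67.5%) were positive. On the 4 chromosomes higher in Lovo the median was -0.51 with 50 of 151 positive (33.1%), and on the other 12 it was -0.03 with 110 of 226 (48.7%). These genes make up the sums and are no separate support. The share of all different circRNAs seen after thinning that lay on a chromosome weighs each ring once. It differed in the same direction on all 11 called chromosomes. The lines did not overlap on 10 of them, and on 10 of the 23 in all. On chromosome 20 they overlapped, with 2.12 ± 0.27% in HCT116 and 2.06 ± 0.28% in Lovo (SD). These shares come from the same reads as the sums and are no separate support.

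**Figure D4:**
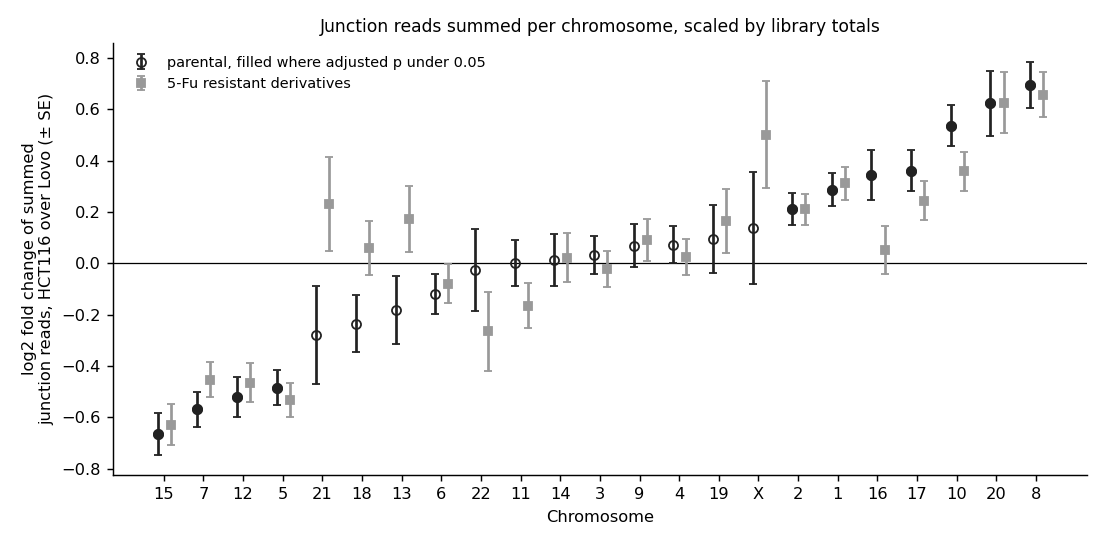
Log2 fold change of HCT116 over Lovo (y axis, ± SE) of junction reads summed per chromosome (x axis, ordered by the parental value), scaled by library totals. Round marks are the parental lines, filled where the adjusted p is under 0.05 (11 of 23), and grey squares are the resistant derivatives. Chromosomes 15, 7, 12 and 5 are the lowest and chromosomes 8 and 20 the highest in both sets.

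Within chromosomes the excess was not even. Of 127 windows of 25 Mb, 21 were higher in HCT116 (16.5%) and 18 higher in Lovo (14.2%). On chromosome 8 all 6 windows were positive, and the 3 called ones were those from 75 Mb on, with log2 fold changes of 1.25, 1.18 and 0.68. On chromosome 17 the first window, from 0 to 25 Mb, was higher in Lovo (-0.54 ± 0.18, adjusted p = 0.016, edgeR), and the 3 windows from 25 Mb on were higher in HCT116 (0.51, 0.81 and 1.09). That first window held 283 reads in HCT116 and 292 in Lovo. It contains ABR, whose rings gave 1 of these reads in HCT116 and 82 in Lovo, and the window without ABR was not tested. All 6 windows of chromosome 12, all 4 of chromosome 15 and all 8 of chromosome 5 were negative. On chromosome 10 the called windows were those from 25 to 75 Mb and from 100 to 125 Mb, and on chromosome 1 the last one, from 225 to 250 Mb (1.07 ± 0.20), which contains both DNAH14 and ZNF124.

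The 5-Fu resistant derivatives gave the same measure in libraries that the parental comparison did not use, though they descend from the same lines. Of the 26 circRNAs higher in parental HCT116, 24 were also higher in resistant HCT116 than in resistant Lovo, and 15 were called there. Of the 17 higher in parental Lovo, 16 kept their direction and 9 were called. Among all 300 circRNAs, 215 had the same sign in both comparisons and 50 were called in the derivatives (16.7%). The exceptions in direction were WHSC1 (log2 fold change 3.19 ± 1.16 in the parents and -2.73 in the derivatives, adjusted p = 0.1 there), CREBBP (2.03 and -0.26) and PVT1 (-1.49 and 0.05).

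MAVS had 55, 48 and 50 reads in resistant HCT116 and 0 in resistant Lovo, and USP34 29, 24 and 36 and 0, so these junctions kept the parental contrast. The junctions of CYP24A1, FIRRE and SPAG9 also stayed at 0 in resistant Lovo. Those of ATAD2 (2, 1 and 2 reads), ARHGAP5 (2, 2 and 4) and the shorter DNAH14 ring (2, 2 and 0) did not. ATAD2 and that DNAH14 ring were not called in the derivatives (adjusted p = 0.185 and 0.113, edgeR), while ARHGAP5 was (9.7e-05). DSG3 had 20, 21 and 15 reads in resistant Lovo and 0 in resistant HCT116, NAV3 12, 8 and 5 and 0, and ABR 41, 30 and 22 and 0, 0 and 1. The HLA-C junction had 16, 7 and 1 reads in resistant HCT116 and 16, 15 and 16 in resistant Lovo, and its derivative fold change of -1.11 did not pass the test (adjusted p = 0.102, edgeR). CAMSAP1 had 25, 24 and 26 against 19, 18 and 23 (log2 fold change 0.16, adjusted p = 0.852), and LAPTM4B, a lysosomal membrane protein called between the parents with 9, 12 and 8 against 1, 2 and 0, had 3, 2 and 3 against 0, 2 and 5. For none of the 43 did the difference between the parental and the derivative fold change pass its own test. It passed for 1 of the 300 circRNAs (0.333%). The nearest of the 43 was WHSC1, with a difference of 5.92 ± 1.66 (SE, adjusted p = 0.0562, edgeR). Where a line had 0 reads in both sets, that test could not decide, because no fold change can be estimated against 0 reads. The difference was 3.84 ± 8928 for CYP24A1 and -0.38 ± 683 for MAVS, where the SE only restates an F statistic near 0. Of the 58 host genes called between the parents, 31 were called in the same direction in the derivatives, where 69 of 580 were called (11.9%). Of the 11 chromosomes, 10 were called again in the same direction, and chromosome 16 was not (0.05 ± 0.09, adjusted p = 0.679, edgeR).

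**Figure D5:**
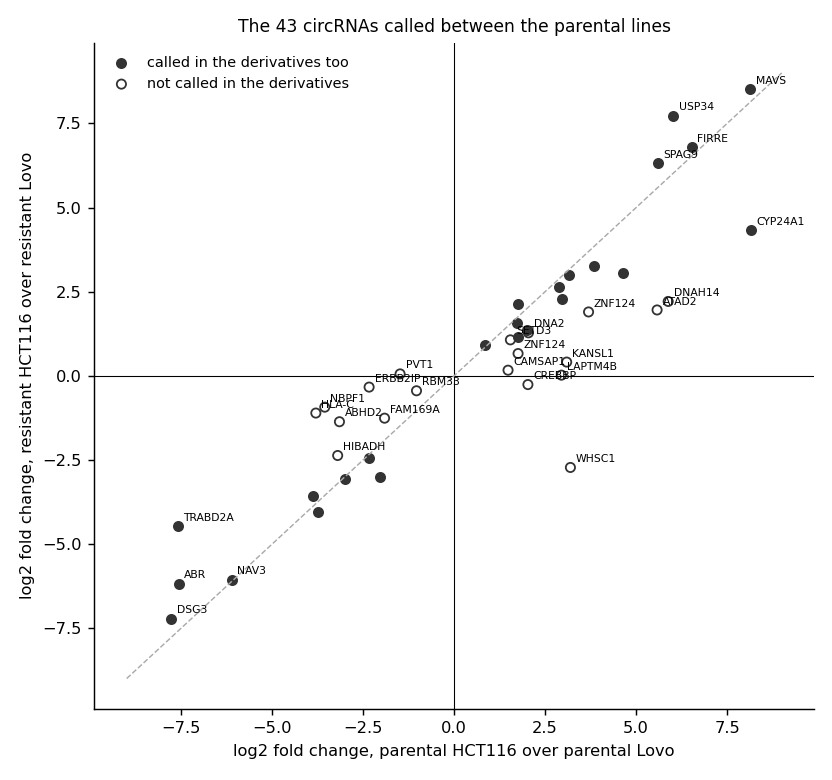
Log2 fold change of HCT116 over Lovo in the parental lines (x axis) and in the resistant derivatives (y axis) for the 43 circRNAs called between the parents. Filled points (24) were called in the derivatives as well, and the dashed line marks equal values. WHSC1, CREBBP and PVT1 lie in the quadrants of opposite sign.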

How the data were processed

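The authors deposited a table of raw, unscaled counts: for every circRNA and each library, the reads over its back-splice junction, beside its position, host gene, class and circBase identifier (per the file headers). RNA was depleted of rRNA and sequenced from directional libraries, per the labels' protocols. The submitters' processing notes list STAR 2.5.1b, edgeR 3.16.5 and cutadapt 1.9.3 without saying what each did, and hg19 as the build, on which positions are printed (1-based). How circRNAs were called, annotated and selected for listing is not given in the sources used here.

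Counts were tested with edgeR 4.0.16 (R 4.3.3): TMM scaling, a filterByExpr minimum of 5 reads and 15 in total, and quasi-likelihood F-tests over 4 group means in all 12 libraries, with 8 residual degrees of freedom (5654 to 10535 reads a library). The same fit was made on sums per host gene and, scaled by library totals, per chromosome (Y and mitochondrial left out). Each SE printed with a log2 fold change was derived from the edgeR test, as the absolute fold change over the square root of its F statistic. DESeq2 1.42.0 and limma 3.58.1 were alternatives. Of 5957 host names, 5601 matched a current or older RefSeq symbol, and 22 circRNAs without a host stayed out of the sums. Counting intervals cover counting error only. Floors (3 counts over a line, TMM-scaled) leave out counting error in the higher line and are no confidence bound. On simulated data with 8-fold changes, 94.1% of changed circRNAs among those tested were recovered, and 52.7% at 4-fold. For host gene sums these shares were 86.7% and 30.8%. Named circRNAs were the 12 with the smallest p per direction, every call with 0 reads in the other line and every call hosted by a listed gene. Named host genes were the 10 with the smallest p per direction not already named, and every call in a list. Remaining calls were added after their values were seen, as were MDM2, PMS1, FANCL, CDH17, TULP4, NAB1, ANKHD1, the promoter pair and the 25 Mb windows. Members and lists were chosen with earlier results of these data known.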

Additional observations from a re-analysis of the deposited data

Results flagged for a closer look

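A circRNA of PRELID2, which encodes a protein related to mitochondrial lipid carriers (hsa_circ_0008647, chr5:145176005-145205763), differed between the lines in opposite directions in the parents and in the derivatives. It had 11, 7 and 7 reads in parental HCT116 and 1, 1 and 3 in parental Lovo (log2 fold change 2.07 ± 0.81 SE, adjusted p = 0.0661, edgeR), and 5, 0 and 2 in resistant HCT116 and 18, 7 and 17 in resistant Lovo (log2 fold change -2.68 ± 0.73, adjusted p = 0.00259). The difference between these fold changes was 4.75 on the log2 scale (adjusted p = 0.0038 over 300 circRNAs, edgeR), and it was the single circRNA of the 300 for which that difference passed.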

How the results depend on the processing

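At these depths most circRNAs cannot be tested. Without a filter on low counts, 14 circRNAs (7 higher in each line) and 28 host genes (17 higher in HCT116 and 11 in Lovo) were called, because all 14911 circRNAs with reads then entered the adjustment. Library totals raised the circRNAs higher in Lovo to 26. A minimum count of 10 left 17 circRNAs higher in HCT116, and the 6 parental libraries alone left 15. Leaving out a parental library gave 30 to 39 circRNA calls (16 to 28 higher in HCT116, 11 to 19 in Lovo), 40 to 52 host calls (19 to 27 and 18 to 25) and 11 to 12 chromosomes. TMM made 11 chromosomes higher in HCT116. The difference in circRNAs detected, 228 after thinning, was 695 without thinning and -31.1 with at least 2 counts. No named result reversed. Of the results called, 14 of 43 circRNAs, 26 of 58 host genes and 10 of 11 chromosomes kept their call in every alternative run. Added after seeing the data were the sums without the called circRNAs, the 25 Mb windows, the circRNAs detected per chromosome and the fit without the class sense overlapping (20 circRNAs higher in HCT116 and 16 in Lovo).

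With the replicate number as a block, 36 circRNAs, 47 host genes, 0 circRNAs within a host gene and 11 chromosomes were called. Libraries with the same number share only that number: their deviations correlated at -0.01, -0.07 and 0.01, and 0 of 6 parental libraries correlated best with their own number.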
